A study of Mus musculus with 2 samples.

Results

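The genes described here are those of the mouse machinery that makes and remodels cardiolipin, the signature lipid of the mitochondrial inner membrane. They were taken by symbol from the deposited table of 54532 genes: Crls1, Ptpmt1, Pgs1, Tamm41, Lclat1, Taz, Cds1, Cds2, Prelid1 and Triap1. All 10 were found, each as 1 row, and all 10 had a mean of at least 1 CPM (read counts scaled to a common library size) over the 2 libraries, as did 12973 genes in all. RNA was sequenced from the interscapular brown fat depot, which burns lipid for heat, of C57BL/6J mice labelled as 1-month-old males. The rheb BAD KO group (Ucp1-cre with both Rheb alleles floxed) lacks Rheb, a GTPase known as the direct activator of mTORC1, where the Ucp1 promoter drives Cre, which is the brown adipocyte. The control group was floxed littermates without that deletion (rheb FL/FL), so both groups carry floxed alleles. Each group is 1 library from a pool of 3 mice, so no value here has a replicate error, no test could be run and every interval covers counting error only.

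Cardiolipin is a dimeric phospholipid that holds respiratory chain complexes and cristae together, and brown fat, with its dense mitochondria, contains much of it. Its synthesis starts when the Prelid1-Triap1 pair carries phosphatidic acid to the inner membrane, a role known from human cells. There the acid is activated to CDP-diacylglycerol, turned into phosphatidylglycerol by Pgs1 and Ptpmt1, and joined to another CDP-diacylglycerol by the cardiolipin synthase Crls1. Tafazzin (Taz) and Lclat1 then exchange the acyl chains. In mice, Crls1 is known to be needed for normal brown fat thermogenesis.

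The rheb BAD KO library held 23699316 counts and the control library 21855229 counts. Rheb itself had 568 counts (25.1 CPM) in the rheb BAD KO library and 1037 counts (45.3 CPM) in the control library, a ratio of 0.553 (95% counting interval 0.499 to 0.613), over all cells and exons of the tissue. The libraries also differed in other ways. Xist, the RNA of the inactive X chromosome, had 4 counts in the rheb BAD KO library and 7452 in the control library, and the Y-linked Eif2s3y had 2653 and 0, which goes against the male label of the control library. Markers are called higher or lower here when the ratio passed 1.5-fold and the counting interval excluded 1. This rule called 22.9% of the 12973 genes higher and 22.9% lower. All 18 skeletal muscle markers with a mean of at least 1 CPM were lower in the rheb BAD KO library. The 19 listed muscle genes summed to 433.3 CPM in that library against 4045 CPM in the control library, and Tnnc2 was at 0 in both. The 10 brown adipocyte markers summed to 13128 CPM in the rheb BAD KO library and 13597 CPM in the control library, and none was at 0. Of these, 3 were higher (Dio2, Ppargc1a and Pparg) and 2 lower (Adipoq and Elovl3), shares near those of all genes. The other 5 lay in between, which does not mean unchanged. Macrophage markers summed to 194.6 CPM in the rheb BAD KO library against 104.3 CPM in the control library (8 of 10 higher), and erythroid markers to 5824 CPM against 2264 CPM (5 of 5 above 1 CPM higher). Neutrophil markers summed to 35.15 CPM against 3.63 CPM (3 of 3 above 1 CPM higher) and fibroblast markers to 550.7 CPM against 410.8 CPM (4 of 9 higher, 1 lower). Mitochondrially encoded genes took 27.6% of the counts in the rheb BAD KO library and 21.0% in the control library. Nuclear pseudogenes of mitochondrial genes (7 on chromosome 1) took a further 15.7% and 11.1%. The part of sex, of mitochondrial RNA content and of muscle, blood, immune and stromal cells in the differences below was not tested.

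Crls1 and Triap1 were the members that differed most, and 2 start regions are shown because the results turn on these genes. They are given 5′ to 3′ on the plus strand from RefSeq (GRCm38.p6, the assembly of mm10). The first is the 250 bases before the annotated start of Crls1 (chr2:132846416-132846665), with an E-box in capitals. The second is the whole 46-base gap between the start of Triap1 and that of Gatc on the opposite strand (chr5:115341179-115341224).
Crls1: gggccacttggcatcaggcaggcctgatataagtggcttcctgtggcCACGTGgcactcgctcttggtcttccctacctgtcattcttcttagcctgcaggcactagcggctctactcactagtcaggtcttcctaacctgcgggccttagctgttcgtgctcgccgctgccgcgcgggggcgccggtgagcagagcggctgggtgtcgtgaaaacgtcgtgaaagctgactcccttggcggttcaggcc
Triap1-Gatc: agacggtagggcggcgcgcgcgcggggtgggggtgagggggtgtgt

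These stretches were 61.6% and 78.3% G or C. RefSeq promoters (250 bases before to 50 after a start) matched 9 of the 10 members, with 11 promoters in all, and were searched on both strands for 5 motifs. The E-box CACGTG, which basic helix-loop-helix factors of the TFEB and USF kind bind, occurred in promoters of 2 members, Crls1 and Prelid1, and in 7.15% of 32851 promoters genome-wide. In Crls1 its first base lies 203 bases before the start. The short cAMP response element TGACG occurred in promoters of 6 members (Cds1, Crls1, Lclat1, Prelid1, Taz and Triap1), and in 20.8% of all promoters. In Crls1 and Triap1 it lies outside the stretches shown. The estrogen-related receptor element TCAAGGTCA (0.423% of all promoters), the short nuclear respiratory factor 1 element GCGCATGC (2.71%) and the sterol regulatory element TCACNCCAC (1.24%) were in none of the members' promoters. These are matches of letters only.

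Crls1, which catalyses the last synthetic step, had the smallest ratio of the 10 genes. It was counted over 8 exon blocks on chromosome 2 (132846666 to 132866785, plus strand, mm10). It had 1918 counts (84.7 CPM) in the rheb BAD KO library and 4110 counts (179.7 CPM) in the control library. That is a ratio of 0.471 (0.446 to 0.498), or 2.12-fold lower in the rheb BAD KO library. Of the 12973 genes, 8.62% had a smaller log2 ratio, taken with 0.5 added to each CPM. In bulk tissue, fewer cells that express a gene and less of its RNA per cell cannot be told apart. An antisense transcript, Gm14104, crosses the start of Crls1 but had 2 counts in the rheb BAD KO library and 6 in the control library, and shares 2 exonic bases with it.

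Comparisons of Crls1 with single members of its pathway do not depend on how the libraries are scaled. The partners used here are only some of the members, and Pgs1 had the largest ratio of all. Triap1 (ratio 0.559) and Cds2 (0.817), also below 1, were not set against Crls1. For each count of Ptpmt1, the phosphatase one step upstream, there were 2.09 counts of Crls1 in the rheb BAD KO library and 4.51 in the control library, a change of 0.464-fold (exact conditional 95% interval 0.416 to 0.516). For each count of Pgs1, 2 steps upstream, there were 2.87 and 7.70 counts of Crls1, a change of 0.373-fold (0.328 to 0.423). Relative to Taz, the change was 0.549-fold (0.499 to 0.604). Against Sdha, a complex II subunit that was picked with its values known, the change was 0.926-fold (0.874 to 0.981).

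The 2 genes of phosphatidylglycerol synthesis were not lower. Pgs1, the phosphatidylglycerophosphate synthase that commits CDP-diacylglycerol to this branch (chromosome 11, 117986292 to 118024011, plus strand), had 669 counts (29.5 CPM) in the rheb BAD KO library and 534 counts (23.3 CPM) in the control library. Its ratio of 1.27 (1.13 to 1.42) was the largest of the 10 and stayed under the 1.5-fold mark. Ptpmt1, the mitochondrial phosphatase that then releases phosphatidylglycerol (chromosome 2, 90908716 to 90918258, minus strand), had 918 counts (40.5 CPM) and 912 counts (39.9 CPM), a ratio of 1.02 (0.927 to 1.12). Its exons share 1657 of 3684 bases with Kbtbd4 on the other strand, which had 92 counts in the rheb BAD KO library and 64 in the control library. The library kit does not mark strand, so reads of the shared bases cannot be assigned to either gene with certainty.

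The 2 partners of the phosphatidic acid carrier differed from each other. Triap1, the small partner that stabilises Prelid proteins in the intermembrane space (chromosome 5, 115341225 to 115343569, plus strand), had 295 counts (13.0 CPM) in the rheb BAD KO library and 533 counts (23.3 CPM) in the control library. Its ratio was 0.559 (0.483 to 0.646), or 1.79-fold lower, and 14.2% of the 12973 genes had a smaller log2 ratio. Prelid1, the lipid-binding subunit (chromosome 13, 55320500 to 55325272, plus strand), had 1975 counts (87.2 CPM) in the rheb BAD KO library and 1751 counts (76.6 CPM) in the control library, a ratio of 1.14 (1.07 to 1.22). There were 0.149 counts of Triap1 per count of Prelid1 in the rheb BAD KO library and 0.304 in the control library, a change of 0.491-fold (0.418 to 0.575).

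The neighbours of these 2 genes bear on how their counts can be read. Gatc, a subunit of the enzyme that makes mitochondrial glutaminyl-tRNA, starts 46 bases from Triap1 in the opposite direction and shares no exonic base with it. Gatc had 220 counts (9.71 CPM) in the rheb BAD KO library and 504 counts (22.0 CPM) in the control library, a ratio of 0.441 (0.375 to 0.518), so both genes of the divergent pair were lower. Prelid1 shares 1258 of its 2726 exonic bases with Rab24 on the other strand. Rab24, a Rab family GTPase, had 859 counts in the rheb BAD KO library and 447 in the control library, a ratio of 1.94 (1.73 to 2.18), and without strand the reads of the shared bases are uncertain for both.

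**Figure D1:**
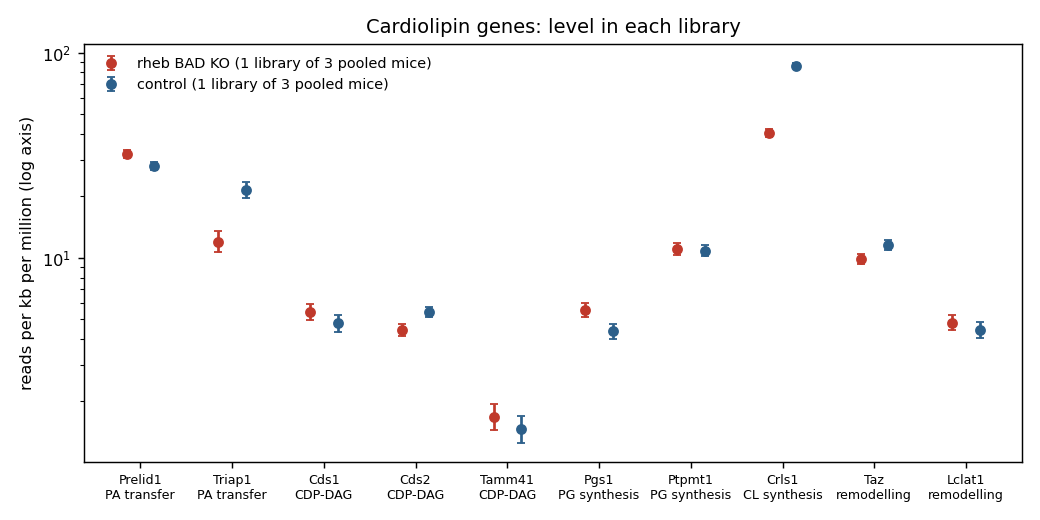
Level of each cardiolipin gene in RPKM (counts per kb of exon, scaled as CPM, log axis) in the rheb BAD KO library (red) and the control library (blue), ordered by step in the pathway (PA, phosphatidic acid; PG, phosphatidylglycerol; CL, cardiolipin). Bars are 95% Poisson counting intervals of 1 library each. Crls1 (40.7 against 86.3) and Triap1 (12.0 against 21.4) show the widest gaps, both lower in the rheb BAD KO library.

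The 3 CDP-diacylglycerol synthases stayed within 1.5-fold, and of their intervals only that of Cds2 excluded 1. Tamm41, the mitochondrial enzyme (chromosome 6, 115004381 to 115037876, minus strand), was the lowest member, with 200 counts (8.83 CPM) in the rheb BAD KO library and 176 counts (7.70 CPM) in the control library, a ratio of 1.15 (0.933 to 1.41). Cds1, an enzyme of the endoplasmic reticulum (chromosome 5, 101765130 to 101823858, plus strand), had 483 counts (21.3 CPM) and 431 counts (18.8 CPM), a ratio of 1.13 (0.992 to 1.29). Its paralog Cds2 (chromosome 2, 132263148 to 132312050, plus strand) had 919 counts (40.6 CPM) in the rheb BAD KO library and 1136 counts (49.7 CPM) in the control library, a ratio of 0.817 (0.748 to 0.892). The balance of the paralogs shifted accordingly, with 1.90 counts of Cds2 per count of Cds1 in the rheb BAD KO library and 2.64 in the control library, a change of 0.722-fold (0.615 to 0.847).

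The 2 remodelling genes stayed within 1.5-fold. Taz encodes tafazzin, the transacylase that is lost in human Barth syndrome. It lies on chromosome X (74281912 to 74290151, plus strand), and had 1201 counts (53.0 CPM) in the rheb BAD KO library and 1412 counts (61.7 CPM) in the control library, a ratio of 0.859 (0.795 to 0.928). The 395 X-linked genes above 1 CPM had a median log2 ratio of -0.12, and the 12530 autosomal genes one of -0.001, while Taz was at -0.22. With Xist all but absent from the rheb BAD KO library, sex and genotype cannot be told apart for Taz. Lclat1, the lysocardiolipin acyltransferase of the endoplasmic reticulum (chromosome 17, 73107985 to 73243368, plus strand), had 534 counts (23.6 CPM) and 496 counts (21.7 CPM), a ratio of 1.09 (0.960 to 1.23). The count of Taz per count of Lclat1 was 2.25 in the rheb BAD KO library and 2.85 in the control library, a change of 0.790-fold (0.682 to 0.915).

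**Figure D2:**
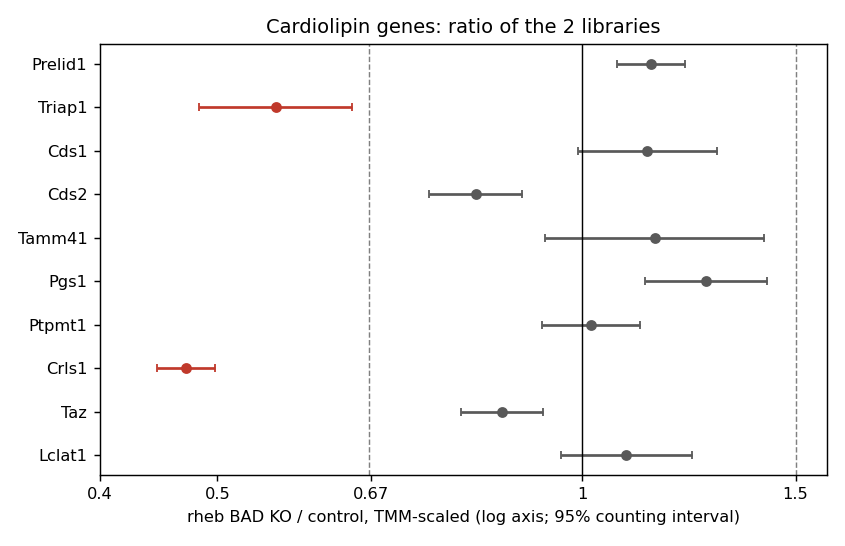
Ratio of the rheb BAD KO over the control library for each cardiolipin gene after TMM scaling (log axis), with its 95% counting interval. The dashed lines mark 1.5-fold in each direction, and only Crls1 (0.471) and Triap1 (0.559), in red, lie outside them.

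A gene was called lower or higher when its ratio passed 1.5-fold and its counting interval excluded 1. By that rule Crls1 and Triap1, 2 of the 10 cardiolipin genes, were lower, while 8 lay in between and none was higher. The same rule called 22.9% of all 12973 genes lower and 22.9% higher and put 54.2% in between, so the share of members called lower was near that of all genes. By the interval alone, Crls1, Triap1, Taz and Cds2 lay below 1, Pgs1 and Prelid1 lay above 1 and 4 members held 1, against 37.6%, 37.3% and 25.1% of all genes. The median log2 ratio of the members was 0.07, and that of all genes was -0.003. With plain total-count scaling, which moves the median of all genes to -0.13, the members' median was -0.06, so its sign depends on the scaling.

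Per length of exon the genes spanned a wide range. In RPKM (counts per kb of exon, scaled as CPM), Crls1 led in both libraries, with 40.7 (38.9 to 42.5) in the rheb BAD KO library and 86.3 (83.7 to 89.0) in the control library. Prelid1 came next with 32.0 and 28.1, and Triap1 after it with 12.0 and 21.4. Taken over full exon length, Crls1 exceeded Prelid1 beyond the counting intervals in both libraries. Prelid1 shares 1258 exonic bases with Rab24 and Ptpmt1 shares 1657 with Kbtbd4, and how reads there were counted is not known. The levels and ranks of Prelid1 and Ptpmt1 are therefore less certain than their counting intervals. In the rheb BAD KO library the intervals of Triap1 and Ptpmt1 (11.0) overlapped, as did those of Ptpmt1 and Taz (9.89), and in the control library Triap1 stood clear of Taz (11.5) while Taz and Ptpmt1 (10.8) overlapped.

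Below these came Pgs1, Cds1, Lclat1 and Cds2, at 4.45 to 5.54 in the rheb BAD KO library and 4.38 to 5.44 in the control library. Within this cluster neighbours in the order could not be separated by their intervals in either library. Cds2 was the lowest of these 4 in the rheb BAD KO library and the highest in the control library, and Pgs1 was the reverse. Tamm41 closed the order with 1.67 in the rheb BAD KO library and 1.46 in the control library. The highest level was 24.3 times the lowest in the rheb BAD KO library and 59.2 times in the control library.

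**Figure D3:**
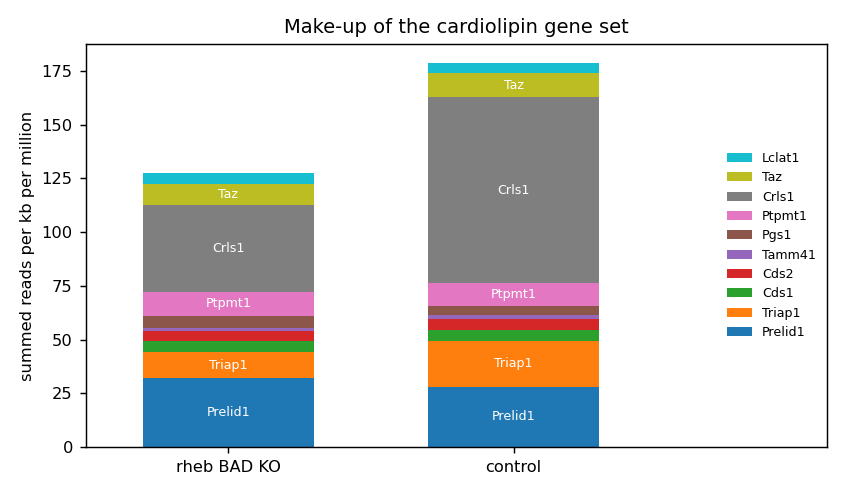
Levels of the 10 cardiolipin genes in RPKM (counts per kb of exon, scaled as CPM), stacked for the rheb BAD KO library (left) and the control library (right). The stacks reach 127.4 and 178.6, and Crls1 makes up 31.9% and 48.3% of them.

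Summed over the 10 genes the level was 127.4 RPKM in the rheb BAD KO library and 178.6 in the control library. Crls1 took 31.9% of that sum in the rheb BAD KO library and 48.3% in the control library. Prelid1 took 25.1% and 15.7%, and Triap1 9.40% and 12.0%. These levels, sums and shares rest on the length of all exons of a gene together. They are approximate where transcripts of different length are mixed, and where exons are shared with another gene, as for Prelid1 and Ptpmt1.

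Another list held genes that break down, move or bind cardiolipin. Of 13 listed genes 12 passed 1 CPM. None of these was higher and Hadha, Hadhb, Prelid2 and Stoml2 (4 genes) were lower, beside 22.9% of all genes in each direction, and the median log2 ratio was -0.34. Plscr3, with a ratio of 1.499 (1.34 to 1.68), lay just under the mark for higher. Hadha, at 0.660 (0.648 to 0.672), lay just past the mark for lower. With total-count scaling 6 of the 12 were lower, but that scaling also called more of all genes lower (28.5%). Hadhb, the beta subunit of the trifunctional protein of fatty acid oxidation, had 1143 CPM in the rheb BAD KO library and 2249 CPM in the control library (ratio 0.508, 0.501 to 0.516). Stoml2, a cardiolipin-binding relative of the prohibitins, had 57.7 and 89.7 CPM (0.643, 0.5995 to 0.690), and Prelid2 had 17 and 34 counts (0.505, 0.265 to 0.929). Prelid3a, which did not pass the level filter, had 0 counts in the rheb BAD KO library and 25 in the control library. In the supply of phosphatidic acid 3 of 10 genes were higher and 1 was lower, shares near the 22.9% of all genes called in each direction or below it, with a median of 0.24. Gpat4, a glycerol-3-phosphate acyltransferase of the endoplasmic reticulum, had 527.4 CPM in the rheb BAD KO library and 245.7 CPM in the control library (2.15, 2.08 to 2.22), while Agpat2, which adds the next acyl chain, had 1017 and 1909 CPM (0.533, 0.524 to 0.541). The acyltransferase gene Agpat4 had 73 and 34 counts (2.17, 1.42 to 3.36).

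The next lists hold genes whose proteins sit in the cardiolipin-rich inner membrane. Among 16 genes of cristae and inner membrane proteins, 9 were lower, 7 lay in between and the median log2 ratio was -0.65. The same rule called 22.9% of all genes lower. The fusion GTPase Opa1 had 62.2 CPM in the rheb BAD KO library and 117.4 CPM in the control library (0.530, 0.496 to 0.565), and the protease Oma1, which cleaves Opa1, had 88 and 176 counts (0.505, 0.386 to 0.656). Letm1, an inner membrane protein of ion exchange, had 131.7 and 261.1 CPM (0.504, 0.483 to 0.527). Among 20 nuclear genes of the respiratory chain, 7 were lower, beside the same 22.9% of all genes, 13 lay in between and the median was -0.45. Uqcrc2, a core subunit of complex III, had 228.9 CPM in the rheb BAD KO library and 597.3 CPM in the control library (0.383, 0.371 to 0.396). Whether the cardiolipin genes differ from these lists was not tested, and skeletal muscle, whose markers were lower in the rheb BAD KO library, also expresses them.

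**Figure D4:**
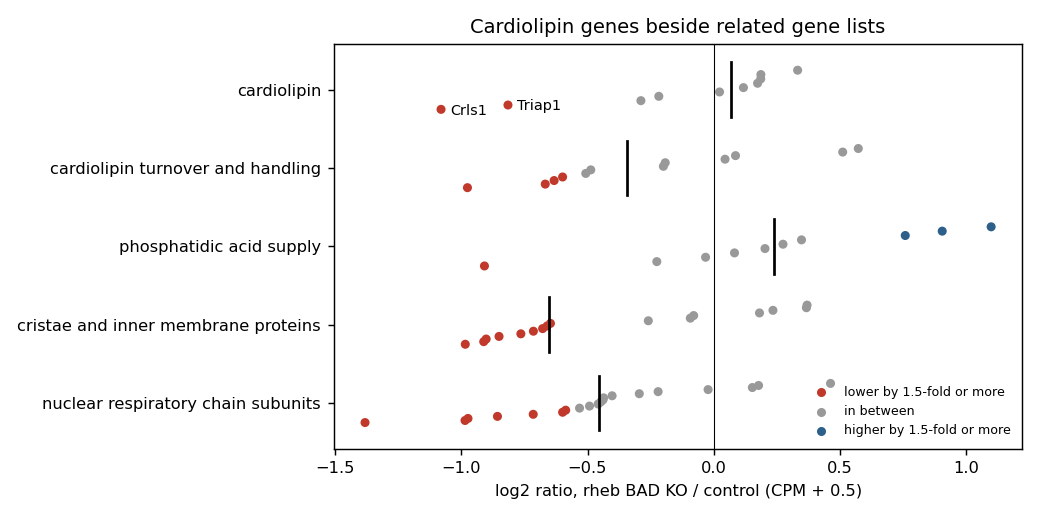
Log2 ratio of the rheb BAD KO over the control library for each gene above 1 CPM in the cardiolipin set and 4 related lists. Red points were lower and blue points higher by 1.5-fold with an interval that excludes 1, and the black bars are medians, at 0.07 for the cardiolipin genes and -0.65 for the cristae and inner membrane proteins.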

How the data were processed

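Total RNA was extracted with Trizol and made into TruSeq RNA v2 libraries, per the labels' protocols. Trimmomatic, HISAT2, featureCounts and the mm10 build are named in the submitters' processing notes, whereas versions, annotation and the treatment of multi-mapped reads were not given in the sources used here. The authors deposited 1 table of unnormalized whole-number counts by gene. Gene length is per the file headers and equalled the union of the listed exons in all 54532 rows.

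From these counts, CPM were computed with TMM factors of edgeR 4.0.16 in R 4.3.3. Ratios are of scaled counts with a 95% exact binomial (Clopper-Pearson) interval, and log2 ratios use CPM plus 0.5. No p-value was computed, because each group is 1 library of 3 pooled mice, and PCR copies make the intervals too narrow. Ratios within a library carry the exact conditional interval of the odds ratio. Gene types came from GENCODE M21 and promoters from RefSeq. The rules were run on simulated counts that held Poisson counting error only, so that run says nothing of differences between mice or tissue pieces. The members and gene lists were chosen with earlier results of these data known. Genes named are Rheb, the members and their neighbours, and up to 3 genes per list with the largest log2 ratio past 1.5-fold. Sums and counts stand in for marker lists. Other exceptions (Xist, Eif2s3y, Tnnc2, Hadha, Plscr3, Prelid3a, Sdha, Dgat2 and marker genes named with their calls) were picked with their values known. Alternatives tried were other scalings (DESeq2 1.42.0 size factors, upper quartile, total counts, gene subsets), filters, pseudocounts and thresholds.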

Additional observations from a re-analysis of the deposited data

How the results depend on the processing

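No paired analysis was possible because there is 1 pooled library on each side, and for the same reason no library could be left out. Crls1 stayed between 0.430 and 0.489 and Triap1 between 0.510 and 0.580 in all 7 scalings, and both were called lower in each. With total counts the ratio of Crls1 was 0.430, of Taz 0.784, of Cds2 0.746 and of Prelid1 1.04, each outside its counting interval with TMM, as that scaling moves all genes by its own factor. Ptpmt1 (0.928) and Lclat1 (0.993) were also below 1 with total counts. With a threshold of 2-fold, 1 cardiolipin gene was lower (Crls1), beside 11.7% of all genes. With the looser threshold tried, 1 was higher (Pgs1), beside 31.8% of all genes. A filter of 10 CPM removed Tamm41 and left a median of 0.02. In all, 90 comparisons of a cardiolipin value with an alternative were labelled as staying the same and 6 were not. A ratio stayed when inside its counting interval, a count when within 1.5-fold, and the median when between the medians of the members' interval bounds. Some of the 90 could not change. Pseudocounts do not enter the calls, thresholds do not enter the median, and dropping the filter adds no member. All genes split into 3695 lower and 2371 higher with total counts, against 2976 and 2968 with TMM, and into 1516 and 1442 at 2-fold. Among 12 turnover and handling genes, total counts gave 6 lower and 0 higher, beside 28.5% and 18.3% of all genes. When the 20 highest genes were left out of the total, 2 were lower and 1 was higher, beside 20.9% and 24.9%. With TMM these counts were 4 and 0, beside 22.9% in each direction. Depth limits Tamm41 and Triap1 most, with 200 and 295 counts in the rheb BAD KO library. No alternative tells the deletion from sex or muscle content.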

Other observations

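The neighbouring branches of phospholipid and neutral lipid synthesis went both ways. Of 13 measured genes of phosphatidylcholine, phosphatidylethanolamine, phosphatidylserine and phosphatidylinositol synthesis, 3 were lower in the rheb BAD KO library and none was higher, with a median log2 ratio of -0.13. That share is near the 22.9% of all genes called lower. Pcyt1a catalyses the rate-limiting step of phosphatidylcholine synthesis from choline. It had 258 counts in the rheb BAD KO library and 677 in the control library (ratio 0.385, 0.332 to 0.445). Chpt1, the cholinephosphotransferase, had 373.9 and 806.0 CPM (0.464, 0.452 to 0.476), and Pemt, which methylates phosphatidylethanolamine, had 83 and 171 counts (0.490, 0.373 to 0.641).

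Of 6 measured acyltransferases of other phospholipids 2 were higher and 1 was lower, beside 22.9% of all genes called in each direction. Lpcat2 had 45 counts in the rheb BAD KO library and 7 in the control library (6.49, 2.91 to 17.1), beside higher macrophage markers whose part was not tested. Lpcat4 had 155 and 75 counts (2.09, 1.57 to 2.79), and Mboat7, which remodels phosphatidylinositol, had 337 and 593 (0.574, 0.501 to 0.657). Among 6 genes of diacylglycerol and triglyceride synthesis, Dgat1 had 1038 CPM in the rheb BAD KO library and 456.2 CPM in the control library (2.27, 2.22 to 2.33), Lpin3 had 247 and 113 counts (2.21, 1.76 to 2.78) and Mogat1 had 40 and 130 counts (0.311, 0.212 to 0.446). With Dgat2 also lower, 2 of the 6 were higher and 2 were lower, beside the same 22.9% of all genes. With 6 genes per list, neither list can be set apart from that share.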
